A study of Homo sapiens with 6 samples.

Results

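The 8 genes described here have diverse functions and fell sharply in PRMT5 knockdown cells. They are the vesicular polyamine transporter gene SLC18B1, the lipid enzyme genes ABHD2 and AGPAT4, the ubiquitin ligase adaptor gene TNFAIP1, the protease gene TMPRSS11E, the membrane protein genes TMEM170A and TMEM44, and KIAA0895. They were chosen out of 12768 genes of the deposited table because their reads fell tightly in the doxycycline libraries, with groups that do not overlap, and each of the 8 symbols was found there. The values of that same contrast chose them, so their falls are given as a description without a test.

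RNA was sequenced from LNCaP cells, an androgen-responsive prostate cancer line that stably carries a short hairpin RNA aimed at PRMT5, switched on by doxycycline. The 3 knockdown cultures received doxycycline for 4 days, and the 3 cultures without knockdown carried the same construct and grew for 4 days without the drug. The design text calls the cultures biological replicates. The sources used here give neither the hairpin's sequence nor whether the line is a clone. No culture that received doxycycline but lacked the hairpin was analysed here, so effects of the drug and of the knockdown cannot be told apart.

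PRMT5 stood at 9.69, 10.8 and 10.6 CPM (read counts scaled to library size, corrected between libraries by edgeR's TMM factors) in the knockdown cultures, against 88.7, 91.96 and 82.8 CPM in the cultures without knockdown, which left 11.8% of its mean level. Library totals ran from 7911853 to 15831938 counted reads, so a count of 3 was worth 0.189 to 0.379 CPM. All 9 luminal prostate markers examined were listed, with a summed level of 6620 to 6977 CPM in knockdown and 7412 to 8137 CPM without it. None of 3 basal and 3 leukocyte markers is listed in the table. Of the fibroblast markers COL1A1, DCN and LUM are listed (sum 39.5 to 42.3 CPM in knockdown and 38.5 to 45.5 CPM without it), and of the endothelial markers VWF (10.9 to 17.3 and 13.8 to 17.5 CPM). Their part in the falls was not tested.

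PRMT5 places symmetric dimethyl marks on arginines of histones, splicing proteins and transcription regulators, and its loss alters both transcription and splicing in many cell types. A hairpin RNA is processed into a short guide strand that directs cleavage of its intended mRNA. The guide can also lower other mRNAs through a short match to its 5′ end, mostly in 3′ untranslated regions (UTRs). Loss of PRMT5 and off-target silencing by the hairpin were not separated by the design, and neither was tested as a cause.

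The mRNAs of the 8 genes were searched for TTCCCTA and TTCCCTAA. This sequence was picked in an earlier analysis of the same libraries for its association with lower fold changes, so its presence here is a description and no independent evidence. Of the 8 genes, 4 carry it in the 3′ UTR of the longest GENCODE 29 mRNA, and TMPRSS11E carries it in the coding sequence. TNFAIP1 holds TCCCTAA in its coding sequence, and no match lies in the mRNA of SLC18B1 or TMEM44. The windows of 30 bases below show every match in the 3′ UTRs and those in coding sequence, with the PRMT5 mRNA first, on GRCh38, 5′ to 3′ along the mRNA, with the matching bases in capitals.
PRMT5 coding sequence (chr14:22922176-22922205, minus strand): tcatggtttcccatcctcTTCCCTAttaag
TMEM170A 3′ UTR, base 737 (chr16:75446803-75446832, minus strand): ctgtaccacctTTCCCTAtcacttttaatt
TMEM170A 3′ UTR, base 2338 (chr16:75445202-75445231, minus strand): attcttacaaaTTCCCTAAcaagaagctca
TMEM170A 3′ UTR, base 4045 (chr16:75443495-75443524, minus strand): acatatcaaccTTCCCTAAgtaaccatttc
KIAA0895 3′ UTR, base 169 (chr7:36326573-36326602, minus strand): tcttaaactatTTCCCTAAaatgtttctat
KIAA0895 3′ UTR, base 2170 (chr7:36324572-36324601, minus strand): ggtcagtttttTTCCCTAAaataaaaagtt
ABHD2 3′ UTR, base 299 (chr15:89195711-89195740, plus strand): gtacatctagtTTCCCTAttaaaaatgtgt
ABHD2 3′ UTR, base 574 (chr15:89195986-89196015, plus strand): cctgagaccatTTCCCTAcgctttgctgct
ABHD2 3′ UTR, base 5355 (chr15:89200767-89200796, plus strand): acaagacgaatTTCCCTAgaaagaatccaa
AGPAT4 3′ UTR, base 4283 (chr6:161132239-161132268, minus strand): cagaagggtgcTTCCCTAcaaagatcttca
TMPRSS11E coding sequence (chr4:68477510-68477539, plus strand): ttctagccctgTTCCCTAcacaaatgcagt
TNFAIP1 coding sequence (chr17:28341274-28341303, plus strand): ccatcatcacaTCCCTAAaggaggaggagc

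The PRMT5 mRNA holds TTCCCTA but not TTCCCTAA. Whether this is where the hairpin binds was not tested, as the sources used here do not give its sequence. The first ABHD2 window shares the longest run with PRMT5, the 11 bases TTCCCTATTAA. A run of at least 11 bases through TTCCCTA is present in the 3′ UTR of 0.302% of measured genes with a full coding mRNA. The other 3′ UTR windows share 7 or 8 bases with PRMT5, and a run of at least 8 is found in 6.17% of genes. Among 11252 measured genes with such an mRNA, 12.1% hold TTCCCTA in the 3′ UTR, against 4 of the 8 (50%), and 4.08% hold TTCCCTAA there, against TMEM170A and KIAA0895 (25%). TMEM170A and ABHD2 hold 3 matches each, a number reached by 0.338% of genes, and KIAA0895 holds 2 copies of the 8-base form, a number reached by 0.249%. The 3′ UTRs of the 8 genes are long, with a median of 2469 bases against 1343 for all genes, so the density per length was also taken. It was 0.354 matches of TTCCCTA per kb of 3′ UTR in the 8 genes and 0.0705 per kb in all genes.

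**Figure D1:**
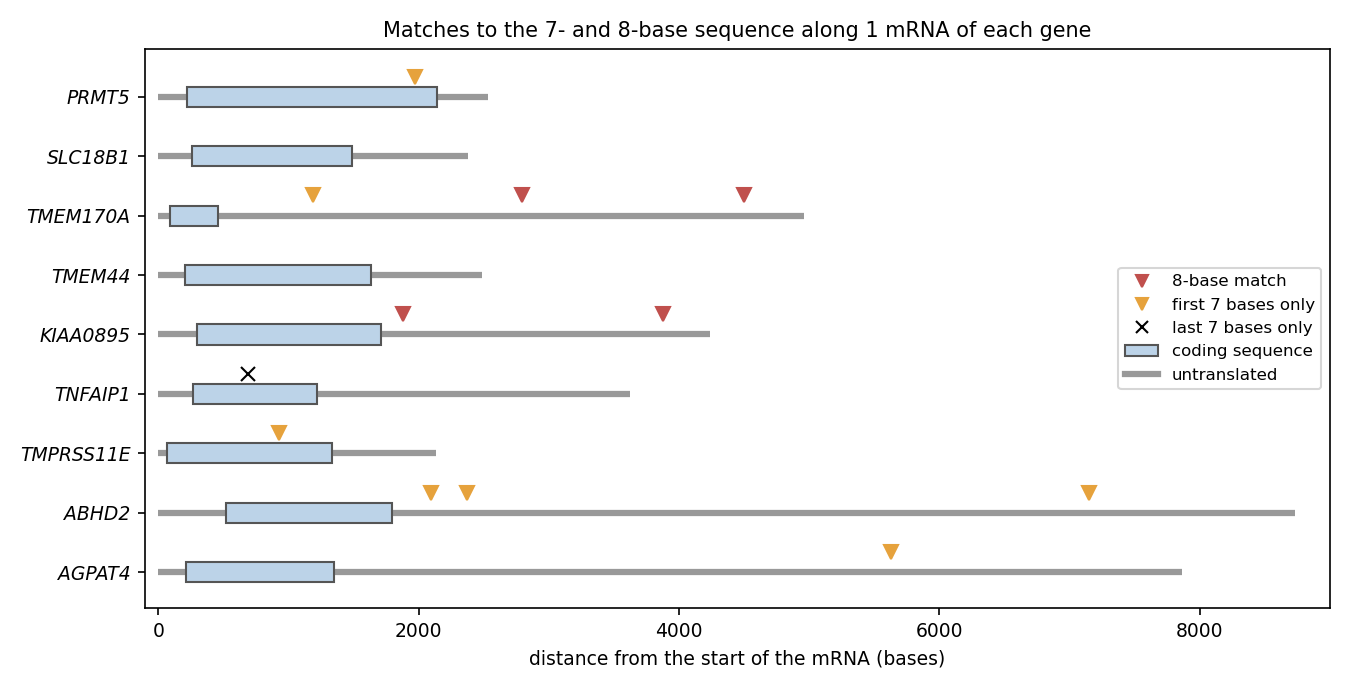
Positions of the 8-base sequence and its parts along the longest GENCODE 29 mRNA of PRMT5 and the 8 genes, with distance from the mRNA start in bases on the x axis, coding sequence as boxes and untranslated sequence as lines. TMEM170A, KIAA0895, ABHD2 and AGPAT4 carry matches in the 3′ UTR. PRMT5, TMPRSS11E and TNFAIP1 (TCCCTAA only) carry them in the coding sequence, and SLC18B1 and TMEM44 carry none.

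The mRNAs differ widely in build. TMEM170A has the shortest coding sequence of the 8, 366 bases in 3 exons, followed by a 3′ UTR of 4504 bases. ABHD2 and AGPAT4 have the longest 3′ UTRs, 6937 and 6515 bases, at the 96.5 and 95.8 percentiles of measured genes. SLC18B1, TMEM44 and TMPRSS11E have 3′ UTRs of 887, 856 and 800 bases, below the median. Exon numbers run from 3 in TMEM170A to 15 in SLC18B1, around the median of 9 for all measured genes.

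SLC18B1 encodes a transporter of the vesicular amine family that moves the polyamines spermine and spermidine into vesicles. The gene spans bases 132769370 to 132813339 of chromosome 6 on the minus strand (GENCODE 29 on GRCh38, as for all gene positions here). Its level was 25.8, 25.65 and 25.6 CPM in the knockdown cultures, against 80.6, 79.5 and 77.0 CPM in those without knockdown. The libraries within each group nearly coincide, and the groups are far apart. Its mean was 25.7 ± 0.11 CPM in knockdown and 79.0 ± 1.81 CPM without it (SD, n = 3 each), which left 32.5%, with a log2 fold change of -1.62 (SE 0.077).

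ABHD2 encodes a serine hydrolase of the alpha/beta hydrolase fold that cleaves monoacylglycerols and responds to progesterone in sperm. The gene spans bases 89087459 to 89202360 of chromosome 15 (plus strand). ABHD2 was by far the most abundant of the 8, at 310.8, 383.9 and 303.1 CPM in knockdown and 668.8, 691.9 and 673.7 CPM without it. Knockdown replicate 2 is the highest of its group and still well below every culture without knockdown. ABHD2 kept 49.1% of its level (333 ± 44.6 CPM in knockdown and 678 ± 12.2 CPM without it, log2 fold change -1.03, SE 0.097).

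AGPAT4 encodes an acyltransferase that turns lysophosphatidic acid into phosphatidic acid, a precursor of phospholipids and triglycerides. It lies on chromosome 6 from 161129979 to 161274061 (minus strand). AGPAT4 is close to the detection limit, with 8, 8 and 12 reads in knockdown and 29, 17 and 22 reads without it. In CPM these are 0.76, 0.75 and 0.77 in knockdown, against 2.66, 1.74 and 2.76 without it. The groups do not overlap, but no-knockdown replicate 2 stands below its group. Its 17 reads have an exact Poisson 95% interval of 1.01 to 2.79 CPM. This overlaps the interval of every knockdown library (0.328 to 1.5, 0.322 to 1.47 and 0.398 to 1.35 CPM for replicates 1, 2 and 3). Such intervals cover counting error only. The fold change of AGPAT4, -1.63 on the log2 scale with 31.8% left, has the largest standard error of the 8 (0.31).

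TNFAIP1 encodes a BTB-domain adaptor through which the CUL3 ubiquitin ligase recognises its substrates, and it was named for its induction by tumour necrosis factor. The gene spans bases 28335602 to 28347009 of chromosome 17 (plus strand). TNFAIP1 was at 32.6, 32.7 and 33.3 CPM in knockdown and at 61.2, 61.75 and 65.0 CPM without it. All 3 knockdown cultures lie within 1 CPM of each other and below each culture without knockdown. This was the mildest fall of the 8, with 52.5% left (log2 fold change -0.93, SE 0.077).

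TMPRSS11E encodes a membrane-anchored trypsin-like serine protease of epithelia. It lies on chromosome 4 from 68447449 to 68497604 (plus strand). TMPRSS11E had 14, 14 and 22 reads in knockdown and 77, 56 and 62 reads without it, or 1.33, 1.31 and 1.41 CPM against 7.06, 5.74 and 7.78 CPM. The knockdown values are alike and those without knockdown vary more, but the counts are low and tightness was part of the choice. The 14 reads of knockdown replicate 1 have an exact Poisson 95% interval of 0.727 to 2.23 CPM, far wider than the spread of the knockdown values. TMPRSS11E fell the furthest of the 8, to 19.7% (1.35 ± 0.057 CPM in knockdown and 6.86 ± 1.04 CPM without it, log2 fold change -2.32, SE 0.22), and ranked 3 among the falls of all genes. The table lists this gene on chromosome 4 and a second sequence, one of 121 genes listed on more than 1 sequence, so reads that fit both copies may have been counted differently from other genes.

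TMEM170A encodes a small protein of the endoplasmic reticulum and nuclear envelope that favours flat membrane sheets over tubules. The gene spans bases 75443054 to 75465497 of chromosome 16 (minus strand). TMEM170A was at 48.3, 47.75 and 45.1 CPM in knockdown and at 100.6, 97.6 and 106.0 CPM without it. The groups lie far apart, and 46.4% of the level was left (log2 fold change -1.11, SE 0.076). TMEM44, a multi-pass membrane protein gene of little known function on chromosome 3 (194587673 to 194633689, minus strand), was at 5.03, 5.595 and 6.10 CPM in knockdown and at 15.3, 16.8 and 16.2 CPM without it. It kept 34.7% of its level, with a log2 fold change of -1.52 (SE 0.14).

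KIAA0895 is listed by RefSeq as MATCAP2, named as a tyrosine carboxypeptidase of microtubules, the kind of enzyme that removes the last tyrosine of alpha-tubulin. It lies on chromosome 7 from 36324221 to 36390125 (minus strand). KIAA0895 was at 21.75, 21.2 and 22.75 CPM in knockdown and at 42.99, 47.7 and 42.9 CPM without it. Replicate 2 is the lowest of the knockdown cultures and the highest of the others, and the groups stay well apart. It kept 49.1% of its level (log2 fold change -1.02, SE 0.091).

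**Figure D2:**
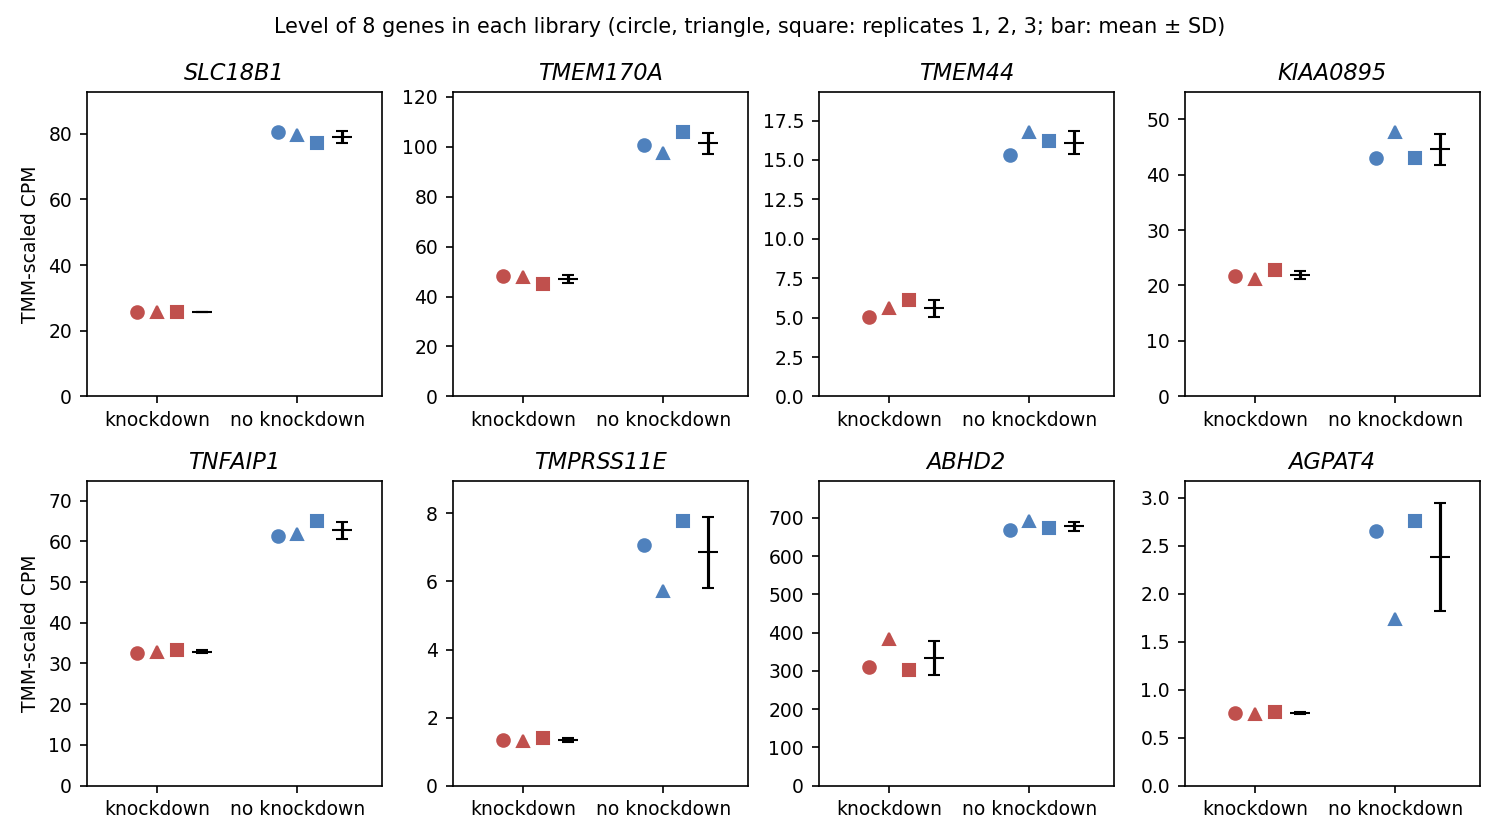
TMM-scaled CPM of each gene in the 3 knockdown libraries and the 3 libraries without knockdown, each panel on its own linear axis from 0, with the mean ± SD beside the points. The groups are apart in every panel, and AGPAT4 and TMPRSS11E show the widest relative spread without knockdown.

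By the way they were chosen, all 8 genes have groups that do not overlap and are lower, as do 11.6% of the 12768 genes (1477), while 8.22% have groups apart in the higher direction. The distance between the highest knockdown culture and the lowest culture without knockdown, on the log2 scale of CPM, ran from 0.80 for ABHD2 to 2.02 for TMPRSS11E. A distance of at least 0.5 in this direction is found in 66 of the 12768 genes, the 8 among them, and a tight fall was part of the choice. A fall of at least 2-fold is found in 7 of the 8, all but TNFAIP1, and in 0.384% of all genes (49). The median log2 fold change of the 8 was -1.31, and -0.0021 over all genes. In bulk RNA, fewer cells that express a gene and less RNA per cell cannot be told apart.

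Each gene was lower in all 3 same-numbered pairs, 24 of 24 comparisons. Groups that do not overlap give this for any pairing, so it is no separate evidence. The log2 ratio of SLC18B1 was -1.64, -1.63 and -1.59 in pairs 1, 2 and 3, and that of TNFAIP1 was -0.91, -0.92 and -0.97. Pair 2 gave the smallest fall for 4 of the 8 genes. Its ratio was -0.85 for ABHD2 (against -1.11 and -1.15 in pairs 1 and 3), -1.22 for AGPAT4 (against -1.81 and -1.84), -2.13 for TMPRSS11E (against -2.41 and -2.46) and -1.03 for TMEM170A (against -1.06 and -1.23). For KIAA0895 pair 2 gave the largest fall (-1.17, against -0.98 and -0.92). The pooled SD of log2 CPM within groups ran from 0.024 for SLC18B1 to 0.24 for AGPAT4, with a median of 0.089 against 0.14 over all genes, and tightness was part of the choice. Fitted values without each library in turn kept the fall of every gene, from -0.90 for TNFAIP1 to -2.44 for TMPRSS11E. That direction too follows from the choice. The authors' deposited table gives log2 fold changes that differ from these by 0.0038 at most.

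**Figure D3:**
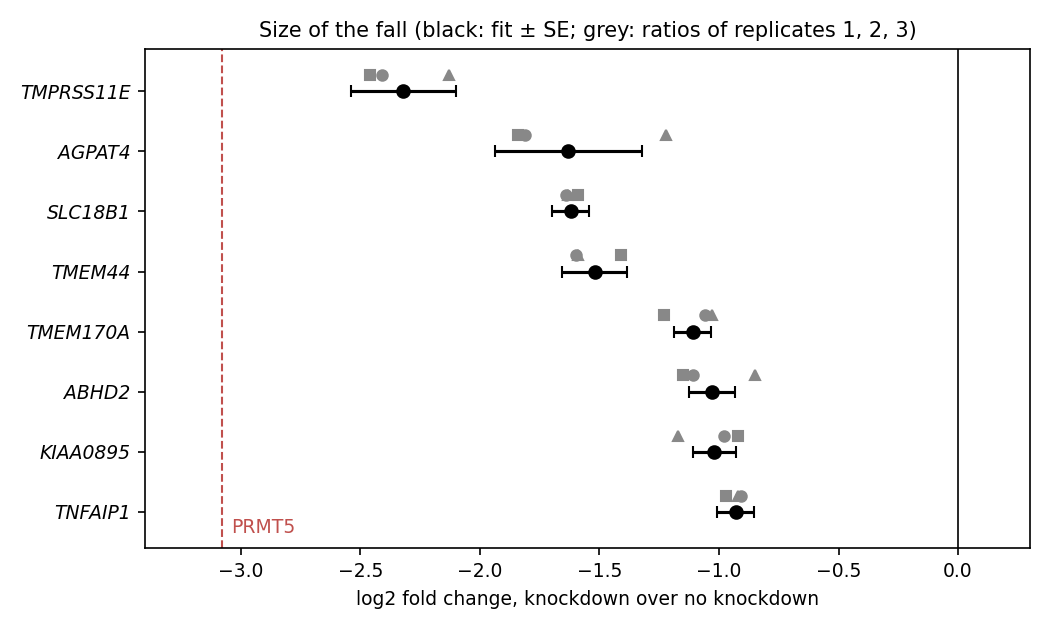
Log2 fold change of knockdown over no knockdown for each gene from edgeR (black, ± SE) and the log2 ratio of each same-numbered pair of libraries (grey), with the fold change of PRMT5 as a dashed line at -3.08. The fitted falls run from -2.32 for TMPRSS11E to -0.93 for TNFAIP1, all smaller than that of PRMT5.

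Per kb of exon length, the 8 genes span more than 2 orders of magnitude, and their order is the same in both groups. In knockdown the mean level was 36.4 CPM per kb for ABHD2, 10.6 for SLC18B1, 9.28 for TMEM170A, 8.63 for TNFAIP1, 4.44 for KIAA0895, 2.21 for TMEM44, 0.63 for TMPRSS11E and 0.096 for AGPAT4. Without knockdown it was 74.3 CPM per kb for ABHD2, 32.6 for SLC18B1, 19.99 for TMEM170A, 16.5 for TNFAIP1, 9.03 for KIAA0895, 6.39 for TMEM44, 3.21 for TMPRSS11E and 0.30 for AGPAT4. Within each group, no library of a gene reaches the range of the next gene in this order. The smallest step is that between TMEM170A and TNFAIP1 in knockdown, where the libraries ran from 8.895 to 9.51 and from 8.55 to 8.74 CPM per kb. The length of TMPRSS11E was taken from chromosome 4 alone.

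The 4 genes that carry TTCCCTA in the 3′ UTR kept 49.1% (KIAA0895 and ABHD2), 46.4% (TMEM170A) and 31.8% (AGPAT4) of their level. The 4 that lack it there kept 52.5% (TNFAIP1), 34.7% (TMEM44), 32.5% (SLC18B1) and 19.7% (TMPRSS11E). These falls chose the genes, and the value of AGPAT4 rests on 8 to 29 reads a library, so nothing is read from the split, and neither the presence nor the number of matches was tested as a cause.

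Promoter windows, from 250 bases before to 50 after a start site, were taken from RefSeq (GRCh38.p14) for all 8 genes, 7 by symbol and KIAA0895 through its newer name, in 11 windows. SLC18B1 and TMPRSS11E are printed because they fell the furthest of the 4 genes without a 3′ UTR match. The capitals mark GC boxes (GGGCGG, found in 45% of 35116 promoter windows) and the letters TATAAA (found in 11.5%), on either strand. Matches were taken anywhere in a window, whatever their distance from the start.
SLC18B1 (chr6:132798588-132798887, minus strand): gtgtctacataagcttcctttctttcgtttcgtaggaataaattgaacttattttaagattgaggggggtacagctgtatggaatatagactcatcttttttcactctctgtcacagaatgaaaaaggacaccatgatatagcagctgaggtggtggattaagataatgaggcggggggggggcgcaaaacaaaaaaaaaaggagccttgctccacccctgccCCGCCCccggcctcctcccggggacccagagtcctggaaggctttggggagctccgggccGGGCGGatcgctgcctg
TMPRSS11E (chr4:68447213-68447512, plus strand): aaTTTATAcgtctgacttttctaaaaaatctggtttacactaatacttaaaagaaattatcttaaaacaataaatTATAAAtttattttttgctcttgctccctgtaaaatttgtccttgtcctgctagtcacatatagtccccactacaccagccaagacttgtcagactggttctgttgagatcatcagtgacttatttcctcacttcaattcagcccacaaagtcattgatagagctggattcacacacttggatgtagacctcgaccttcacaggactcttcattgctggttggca

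The RefSeq start of SLC18B1 lies inside the GENCODE span given above, so its window is not at the outermost GENCODE start. The SLC18B1 window holds 2 GC boxes and no TATAAA, and the TMPRSS11E window holds 2 matches of TATAAA and no GC box. Both TATAAA matches of TMPRSS11E lie far before the start, so they are not called TATA boxes here. Of the other genes, TMEM44 has the most GC boxes (6, some of which overlap) and the most GC-rich window (76.0%, against a median of 58.7% for all windows), while TMPRSS11E has the least (37.0%). CCAAT, found in 34.6% of windows, occurs in those of TMEM170A, ABHD2 and AGPAT4, and that of AGPAT4 also holds 1 match of TATAAA, after the start. No window of the 8 genes holds TGACGTCA (1.85% of all windows), CACGTG (7.26%), AGAACA (14.8%), TGATGNAA (3.62%) or CCGGAAG (10.3%), searched on both strands. These are matches of letters in these windows and say nothing of factors bound there.

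Most of the nearest measured genes beside the 8 on the chromosome were not called. The nearest measured gene on each side was taken from GENCODE 29, 16 in all, and none of them is one of the 8. Some lie far off, such as QKI at 2140 kb from AGPAT4, STX7 at 256 kb from SLC18B1 and MFGE8 at 174 kb from ABHD2. By edgeR's quasi-likelihood test with Benjamini-Hochberg adjustment over all genes, 1 of the 16 was lower (6.25%, against 1.14% of all genes) and 0 were higher (against 0.337%). At an unadjusted p under 0.05, 2 were lower and 1 higher, and DESeq2 and limma-voom each called 1. The median log2 fold change of the neighbours was -0.10, with 10 of 16 below 0.

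The called neighbour was UGT2B17, an androgen glucuronidation enzyme gene 39.6 kb from TMPRSS11E, with 1403 ± 43.7 CPM in knockdown and 2042 ± 237 CPM without it (SD, n = 3 each, log2 fold change -0.54, edgeR adjusted p = 0.0205). Its reads are hard to tell from those of close UGT2B copies. Its call was lost without knockdown replicate 1 (adjusted p = 0.164), knockdown replicate 3 (0.134), no-knockdown replicate 1 (0.0595) or no-knockdown replicate 3 (0.0964). On the other side of TMPRSS11E, the gene of the m6A reader YTHDC1 had a log2 fold change of -0.07.

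Both neighbours of TNFAIP1 sit less than 1 kb from it without overlapping it. POLDIP2, which encodes a partner of DNA polymerase delta, ends 0.168 kb from it on the other strand and had a log2 fold change of 0.11 (160 ± 14.8 CPM in knockdown and 149 ± 3.41 CPM without it, edgeR adjusted p = 0.60). IFT20, an intraflagellar transport gene that starts 0.113 kb away on the other strand, had one of -0.28 (edgeR adjusted p = 0.278). RPS12, a ribosomal protein gene 1.10 kb from SLC18B1, had one of -0.11, and STX7 one of -0.12. The chromatin gene CFDP1 and the ciliary gene TMEM231 beside TMEM170A had -0.16 and -0.26.

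A pair of neighbours overlap a member on the opposite strand, and the sources used here do not state how strand was handled in counting, so reads in the overlap may be mixed. The antisense RNA TMEM44-AS1 had 14.4 ± 0.59 CPM in knockdown and 11.8 ± 2.18 CPM without it (log2 fold change 0.28, edgeR adjusted p = 0.44), the opposite side from TMEM44. ANLN, the gene of the cytokinesis protein anillin, overlaps KIAA0895 and had 9.88 ± 1.37 CPM in knockdown and 7.45 ± 0.36 CPM without it (0.41, edgeR adjusted p = 0.27). LSG1 (0.12), EEPD1 (-0.13), MFGE8 (-0.15), FANCI (-0.09), MAP3K4 (0.14) and QKI (0.21) are the remaining neighbours, none of them called. TTCCCTA occurs in the 3′ UTR of 1 of 15 neighbours with a coding mRNA, TMEM231 (6.67%, against 12.1% of all genes).

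**Figure D4:**
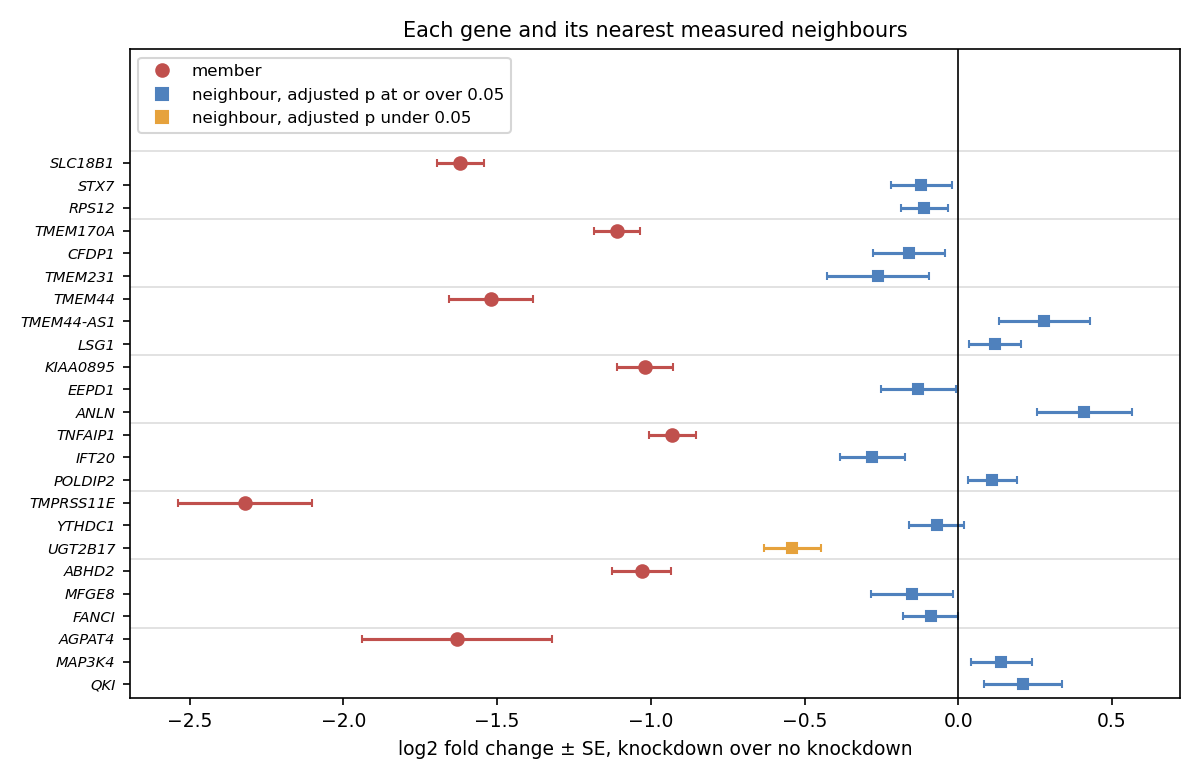
Log2 fold change ± SE of knockdown over no knockdown for each of the 8 genes (circles) and below each its nearest measured neighbour on either side (squares). The 8 genes lie at -0.93 or lower, while the neighbours lie between -0.54 and 0.41, and UGT2B17 alone passed the test.

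The closest sequence relatives that were measured were not called in either direction. The listed relatives of SLC18B1 and TMPRSS11E were not measured, and none was listed for TMEM44. Of 15 paralogues listed, 7 were measured, and edgeR's test called 0 of them (1 lower and 2 higher at an unadjusted p under 0.05, 0 by DESeq2 and 0 by limma-voom). TMEM170B, the relative of TMEM170A, had 32.0 ± 4.32 CPM in knockdown and 28.1 ± 3.37 CPM without it (log2 fold change 0.19, edgeR adjusted p = 0.544). KIAA0895L, the relative of KIAA0895, had a log2 fold change of 0.14, and the TNFAIP1 relatives KCTD10 and KCTD13 had -0.13 and 0.25. ABHD3 had -0.21 (edgeR adjusted p = 0.295) and the acyltransferases AGPAT3 and AGPAT5 had 0.17 (0.319) and 0.20 (0.339). A p above the threshold does not show that these genes were unchanged.

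Genes that work beside the 8 were then read from lists chosen by function, 171 measured genes in all, none of them one of the 8. By edgeR 4 were lower and 0 higher (2.34%, against 1.48% of all genes in either direction), 25 and 9 at an unadjusted p under 0.05, 6 and 0 by DESeq2 and 3 and 0 by limma-voom. With the replicate number as a block 19 were lower and 3 higher (12.9%, against 8.31% of all genes in that fit, 5.1% lower and 3.21% higher). The median log2 fold change was -0.02. Without knockdown replicate 1, 0 were called, without knockdown replicate 3, no-knockdown replicate 1 or no-knockdown replicate 3 it was 1, and without knockdown replicate 2 it was 8.

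Polyamine genes were read for SLC18B1. Of 21 measured, 2 fell and 0 rose (9.52%, against 1.48% of all genes), with a median log2 fold change of -0.10. With the block 3 were lower and 0 higher (14.3%, against 8.31% of all genes), and DESeq2 called 2 and limma-voom 1. At an unadjusted p under 0.05, 5 were lower and 0 higher, with no share of all genes to set beside them. ARG2, the mitochondrial arginase that makes ornithine, was at 54.9, 53.2 and 56.4 CPM in knockdown and at 81.8, 85.3 and 82.2 CPM without it, with groups far apart (log2 fold change -0.60, SE 0.073, edgeR adjusted p = 0.00442, and 0.0553 without knockdown replicate 1). ATP13A3, a pump of the polyamine uptake system, had 127 ± 5.30 CPM in knockdown and 162 ± 10.0 CPM without it (-0.35, edgeR adjusted p = 0.0499). Its call is marginal, lost with DESeq2 size factors (adjusted p = 0.0598), by limma-voom (0.0547) and without any of the 6 libraries (0.0563 without no-knockdown replicate 2 to 0.294 without knockdown replicate 1). Ornithine decarboxylase ODC1 (0.03) and the spermidine synthase SRM (0.13) were not called. The acetyltransferase SAT1, which marks polyamines for export and breakdown, had -0.28 (edgeR adjusted p = 0.135, and 0.0219 with the replicate block).

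Lipid genes were read for AGPAT4 and ABHD2. None of 34 acyltransferase and phosphatidic acid genes was called by edgeR (2 lower and 3 higher at an unadjusted p under 0.05, 1 by DESeq2, 0 by limma-voom), with a median log2 fold change of 0.01. The choline phosphotransferase gene CHPT1 had 291 ± 30.4 CPM in knockdown and 396 ± 44.9 CPM without it (-0.44, edgeR adjusted p = 0.0754, and 5.67e-04 with the replicate block). The diacylglycerol kinase gene DGKH, the other call with the block, was higher there (adjusted p = 0.00318 by edgeR with the block, and 0.721 without it), at 293 ± 115 CPM in knockdown and 227 ± 75.1 CPM without it. PPAP2C, a phosphatidic acid phosphatase gene, had -0.28 (edgeR adjusted p = 0.292). None of 24 genes of the ABHD family and related lipases was called either (4 lower and 1 higher at an unadjusted p under 0.05, 0 by DESeq2, 0 by limma-voom and 0 with the block). The lowest p there were those of C4orf29 (0.31, edgeR adjusted p = 0.23) and ABHD12, a lysophosphatidylserine lipase (-0.26, 0.287).

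Among 45 genes of the CUL3 ligase and its adaptors, read for TNFAIP1, 1 fell and 0 rose (2.22%, against 1.48% of all genes). With the block 8 were lower and 1 higher (20%, against 8.31% of all genes), and at an unadjusted p under 0.05 8 were lower and 2 higher. DESeq2 and limma-voom each called 1. KBTBD7, a BTB and kelch adaptor of CUL3, was at 51.2, 54.6 and 50.6 CPM in knockdown and at 71.2, 74.96 and 73.0 CPM without it, with no overlap (log2 fold change -0.49, SE 0.075, edgeR adjusted p = 0.0138). The call was lost without knockdown replicate 1 (adjusted p = 0.124), knockdown replicate 3 (0.0985), no-knockdown replicate 1 (0.0595) or no-knockdown replicate 3 (0.0963). CUL3 itself had 0.23 (edgeR adjusted p = 0.309, and 0.0327 with the block).

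Of 8 membrane-anchored serine proteases and inhibitors, read for TMPRSS11E, none was called (1 lower and 1 higher at an unadjusted p under 0.05, 0 by DESeq2 and limma-voom) and 2 were lower with the block (25.0%, against 8.31% of all genes). TMPRSS6, the protease matriptase-2, had 3.34 ± 0.20 CPM in knockdown and 5.68 ± 0.95 CPM without it (-0.77, edgeR adjusted p = 0.0977, and 0.0243 with the block). PRSS8, which encodes prostasin, had 0.23 (0.276 by edgeR). TMPRSS2 overlapped between groups (75.7 ± 25.9 CPM in knockdown and 103 ± 23.4 CPM without it, edgeR adjusted p = 0.482, and 0.00166 with the block).

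Genes that shape the endoplasmic reticulum were read for TMEM170A, and 1 of 21 fell while 0 rose (4.76%, against 1.48% of all genes). With the block 4 were lower and 1 higher (23.8%, against 8.31%), at an unadjusted p under 0.05 likewise 4 and 1, and DESeq2 called 2 and limma-voom 1. ARL6IP1, a membrane-curving protein of the tubules, was at 162, 201 and 176 CPM in knockdown and at 260, 326 and 245 CPM without it, with replicate 2 highest in both groups (log2 fold change -0.63, SE 0.12, edgeR adjusted p = 0.0307). Its call was lost without knockdown replicate 1 (adjusted p = 0.182), knockdown replicate 3 (0.174), no-knockdown replicate 1 (0.0853) or no-knockdown replicate 3 (0.0739). The sheet proteins CKAP4 and KTN1 had 0.03 and 0.16. None of 18 tubulin tyrosination and glutamylation genes, read for KIAA0895, was called by edgeR (1 lower and 1 higher at an unadjusted p under 0.05, 0 by DESeq2 and limma-voom). The glutamylase subunit gene TTLL1 had -0.42 (edgeR adjusted p = 0.185, and 0.0212 with the block), TTLL12 had 0.21 (0.29), and the tyrosine ligase TTL had 0.02.

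Of the 4 called related genes, ARG2, ATP13A3 and KBTBD7 carry TTCCCTA in the 3′ UTR and ARL6IP1 does not. Among all 165 related genes with a coding mRNA the share was 11.5%, against 12.1% of all measured genes. The 4 called genes were all lower, and TTCCCTA was picked in these libraries for its association with lower fold changes. Its presence in them is therefore no independent evidence.

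**Figure D5:**
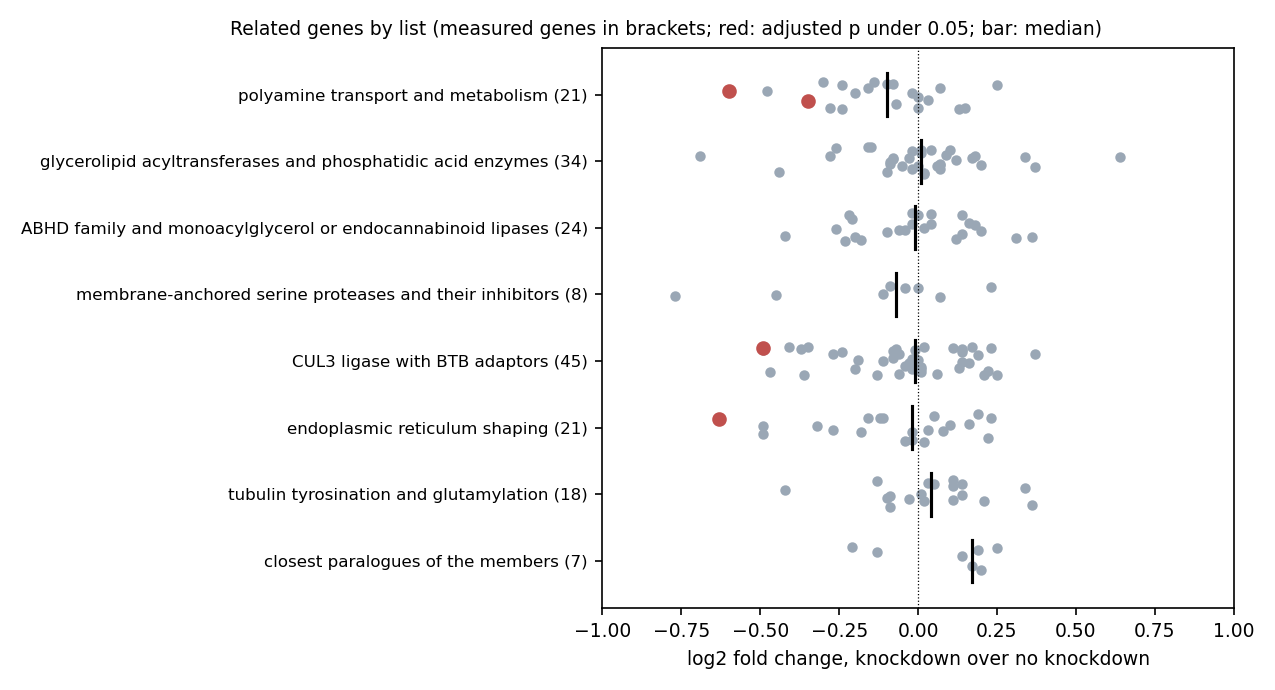
Log2 fold change of knockdown over no knockdown for every measured gene of the 8 lists of related genes, 1 point per gene, with the list median as a bar and genes past an edgeR adjusted p of 0.05 in red. The medians lie between -0.10 and 0.17, and 4 genes, all below 0, passed.

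The genes with the most similar profile were found by the root mean square distance between their log2 CPM, centred on the gene's own mean over the 6 libraries, and the mean centred profile of the 8. That mean profile stood at -0.70, -0.66 and -0.66 in knockdown and at 0.68, 0.61 and 0.73 without it. The nearest of the other genes were GDPD1, a lysophospholipase D gene (distance 0.11), RNF14, a ubiquitin ligase gene (0.14), MAATS1 (0.17), the heparan sulfate proteoglycan gene SDC1 (0.19), the dimethylglycine dehydrogenase gene DMGDH (0.19) and the proteasome subunit gene PSMB5 (0.20). The 8 themselves lay at 0.12 (TMEM44) to 0.43 (TMPRSS11E) from their mean. GDPD1 was at 6.46, 6.53 and 6.49 CPM in knockdown and at 13.7, 15.3 and 15.6 CPM without it. The measure picks genes with such a profile, so no test was made of them. GDPD1, RNF14 and SDC1, 3 of these 6 (50%), hold TTCCCTAA in the 3′ UTR, against 4.08% of all measured genes with a coding mRNA. These genes were picked for falling like the 8. The sequence was picked in the same libraries for its association with lower fold changes, so its presence here is no independent evidence.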

How the data were processed

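RNA from 6 LNCaP cultures was sequenced. The submitters' processing notes name hg38 and the tools STAR 2.5, Subread 1.6.5 with featureCounts, bcl2fastq, and edgeR 3.20.8. Per the file headers, the authors deposited raw read counts per gene, log2 CPM per library, a log2 fold change with its p-value and false discovery rate, and each gene's exon length. The table's coordinates are not those of GRCh38, so positions come from GENCODE 29 by gene name. The sources used here state neither the counting strand nor a filter.

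Counts of 12768 genes were fitted with edgeR 4.0.16 in R 4.3.3 by the robust quasi-likelihood test, with TMM scaling and a single group term. filterByExpr (minimum count 10, minimum total 15) left out 0 genes. It scales the minimum count to library size, and AGPAT4 meets it only through the libraries without knockdown. P-values were adjusted over all genes by Benjamini-Hochberg, with a threshold of 0.05. Standard errors are the unshrunken log2 fold change over the root of the F statistic. The fit was tested on simulated data. Alternatives were DESeq2 1.42.0, limma 3.58.1 voom, other scalings and filters, the replicate block, and leaving out each library. Libraries of 7911853 to 15831938 reads limit precision most for AGPAT4 and TMPRSS11E.

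Same-numbered libraries deviated together (correlation across genes 0.34, 0.45 and 0.17 for numbers 1, 2 and 3), each above the limit of 0.1 for pairs, but knockdown replicate 1 with no-knockdown replicate 3 (0.23) and knockdown replicate 3 with no-knockdown replicate 1 (0.20) exceeded the 0.17 of number 3, so the pairing of numbers 1 and 3 is uncertain. No replicate pair agreed within sampling noise (chi-square per degree of freedom 1.73 to 20.4). The p-values set the group difference against the spread between these cultures. In the fit without the block, that spread includes what same-numbered libraries share.

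The 8 genes, the gene lists and the rules were chosen with earlier results of these data known. The text names the 8 genes, PRMT5, both measured neighbours of each, called genes of each list or else the 2 with the lowest p, and the 6 nearest profiles (average log2 CPM of at least 1). Any other list member in the text was picked with its values in view. The longest complete protein-coding mRNA of each gene in GENCODE 29's basic set was searched for matches. A few genes of the CUL3 list are not reported here.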

Additional observations from a re-analysis of the deposited data

How the results depend on the processing

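The fall of the 8 genes kept its direction in all 13 alternatives (12 for AGPAT4, which an average log2 CPM of at least 1 removes). That filter moved the median of the 8 to -1.11 over the 7 left, against -1.31. When a library was left out, the fitted value moved most for AGPAT4, from -1.82 to -1.53. The falls chose these genes, so their kept direction is a description and no independent evidence. The numbers of called genes depend far more on the fit. In all, 189 genes were called, 303 by DESeq2's Wald test, 1061 with the replicate block, and 24 to 445 when a library was left out. Related genes numbered 4, 22 with the block and 0 to 8 without a library, and neighbours 1 and 0 to 1. With the block, called members were 9 for the CUL3 list (8 lower and 1 higher, 1 otherwise), 5 for endoplasmic reticulum shaping (4 lower and 1 higher, 1 otherwise), 2 for glycerolipid acyltransferases (1 lower and 1 higher, 0 otherwise), 2 for serine proteases (0) and 1 for tubulin enzymes (0). DESeq2's test called 2 in endoplasmic reticulum shaping and 1 in glycerolipid acyltransferases, and DESeq2 size factors and limma-voom called 1 polyamine gene each (2 otherwise). Without a library the counts ran from 0 to 2 for polyamine genes, 0 to 3 for the CUL3 list, 0 to 2 for endoplasmic reticulum shaping, and 0 to 1 for glycerolipid, protease and tubulin genes. Why these counts move was not tested. The ABHD list and the paralogues had 0 calls in every fit. AGPAT4 has at most 29 reads in any library, so its fold change is the least precise.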
